A study of Mus musculus with 12 samples.

Results

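Signals that B cells exchange with helper T cells were followed through 9 genes: Cd40, Cd86, Cd80, Cd83, Icosl, Il21r, Il4ra, Il2rg and Fas. They were chosen by symbol as genes of costimulation and of T cell cytokine reception, by a rule that uses no measured value though earlier results of these data were known, and all 9 were found among the 13886 genes of the count matrix. The matrix holds 6000 B cells and plasma cells from the draining lymph nodes of 3 mice, measured with a droplet-based single-cell RNA assay that reads transcripts from the 5' end. The mice had been primed with NP-KLH, a hapten on a carrier protein, in Sigma Adjuvant System and given tamoxifen by gavage, and the cells were taken 5 days later, on day 16 of the response. All cells were sorted as live, IgD-negative and eYFP-positive. Plasma cells and the other B cells went into separate wells, in which the 3 mice were pooled and told apart by barcoded antibodies to CD45. The genotype, the age and the promoter that drives the reporter are not stated in the labels, so every group shares an eYFP label of unstated cell type.

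The authors' annotation gives 6 states, and each mouse contributed cells to every one. There were 137 plasma cells (PC), 49 pre-plasma cells (prePC), 396 pre-memory cells (preMem), 165 cells annotated as moving from the light to the dark zone (LZtoDZ), 2213 light zone cells (LZ) and 3040 dark zone cells (DZ). The median depth was 24018 unique molecular identifiers (UMIs) per cell in PC, 9225 in prePC, 4119 in preMem, 19103 in LZtoDZ, 6258 in LZ and 7875 in DZ. UMIs were summed per mouse and state, which gave 18 sums of 83381 to 10709429 UMIs. By marker genes, plasma cell markers summed to 19541 to 25290 CPM in PC and 1666 to 4306 CPM in prePC, where mouse 1 was no higher than its own DZ cells (1670 CPM), while no marker list covered LZ or prePC themselves. PrePC resembled preMem in their germinal center markers, at 252 to 274 CPM in prePC, 248 to 365 CPM in preMem and 789 to 823 CPM in LZ, and in their pre-memory markers, which summed to 971 to 1259 CPM (UMIs scaled to the same total in every sum) in prePC, beside 1269 to 1401 CPM in preMem and 52.6 to 63.2 CPM in LZ. The T cell markers summed to 0 in PC, 4.80 to 48.0 CPM in prePC and 2.26 to 3.75 CPM in LZ, and myeloid markers reached 432 CPM in the prePC of mouse 1, against 0.784 to 7.92 CPM in LZ. The authors assigned states from expression, with genes not named in the labels or files, so no comparison between states is independent of the annotation.

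In a germinal center, B cells mutate and divide in the dark zone, then take up antigen in the light zone and present it to follicular helper T cells. CD40 receives CD40 ligand from the T cell and drives NF-kB signalling. CD80 and CD86 engage CD28 and CTLA-4, ICOSL engages ICOS, and CD83 stabilises MHC class II and CD86 at the cell surface. The T cell cytokines IL-21 and IL-4 bind receptors made of IL21R or IL4Ra with the common gamma chain, the product of Il2rg. FAS is the death receptor for Fas ligand. B cells that receive help may return to the dark zone, leave as memory cells or become plasma cells.

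In the GENCODE annotation of GRCm38, Il4ra lies at chr7:125552120-125579474 and Il21r at chr7:125603429-125633570, both on the plus strand, 23955 bases apart with 0 annotated genes between them. Icosl lies at chr10:78069302-78083913 on the plus strand, Cd40 at chr2:165055627-165072948 (plus), Cd86 at chr16:36603869-36666081 (minus), Cd80 at chr16:38455561-38496335 (plus), Cd83 at chr13:43784775-43803132 (plus), Il2rg at chrX:101264378-101268255 (minus) and Fas at chr19:34290666-34327772 (plus).

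Sequences of 250 bases upstream of the RefSeq transcript start (GRCm38.p6) were matched for 6 of the 9 genes. Those of Icosl, at chr10:78069118-78069367, and Il4ra, at chr7:125552021-125552270, both on the plus strand, are shown because these genes stood lowest in LZtoDZ relative to LZ on both scales used below. Capitals mark, on either strand, a kappaB pattern (GGG and CC with 5 bases of any kind between them) or an octamer pattern (ATGNAAAT). The octamer pattern was chosen after the sequence had been read.
Icosl: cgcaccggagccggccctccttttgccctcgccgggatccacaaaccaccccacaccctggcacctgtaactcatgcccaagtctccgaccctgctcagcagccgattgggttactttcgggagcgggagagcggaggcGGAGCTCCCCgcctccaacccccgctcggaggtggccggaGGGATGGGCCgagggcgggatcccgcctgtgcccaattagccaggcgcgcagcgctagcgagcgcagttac
Il4ra: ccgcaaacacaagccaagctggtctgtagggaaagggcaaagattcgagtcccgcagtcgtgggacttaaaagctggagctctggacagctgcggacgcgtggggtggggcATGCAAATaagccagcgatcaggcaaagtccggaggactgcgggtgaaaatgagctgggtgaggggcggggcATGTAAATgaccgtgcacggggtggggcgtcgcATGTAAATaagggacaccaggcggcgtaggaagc
Icosl has 2 kappaB matches and Il4ra 3 octamer matches, and neither has a match to the other pattern. Of 32851 upstream windows of this length 45.8% hold a kappaB match and 5.03% an octamer match. Both lack the STAT patterns, TTC and GAA with 3 bases of any kind between them, found in 7.02% of windows, or with 4, found in 5.85%. The GENCODE genes start earlier, at 125552120 for Il4ra and 78069302 for Icosl, so part of each window lies inside the gene as GENCODE draws it. That part holds all 3 octamer matches of Il4ra. A match describes the letters only.

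In LZ, 7 of the 9 genes were higher than in DZ, led by Cd83 and Cd40. Of the 8473 genes tested, 19.4% passed the test in either direction and 11.3% were higher. Tests were edgeR's quasi-likelihood test on the sums with the mouse as a block, Benjamini-Hochberg adjusted over all genes tested, and a gene was called below 0.05. Levels are CPM scaled by the TMM factor of each sum, and log2 fold changes are given ± SE. Cd83 had 479.7, 386.6 and 404.5 CPM in the LZ cells of mice 1, 2 and 3, against 89.1, 85.7 and 86.2 CPM in their DZ cells. Its log2 fold change was 2.28 ± 0.24 (adjusted p = 8.4e-06), and each LZ value lay far above each DZ value. Cd40 had 99.1, 94.1 and 101.9 CPM in LZ and 38.7, 33.8 and 37.1 CPM in DZ (1.43 ± 0.13, adjusted p = 1.9e-06). Cd86 had 138.0, 124.7 and 126.2 CPM in LZ and 57.6, 54.1 and 52.7 CPM in DZ (1.24 ± 0.12, adjusted p = 3.4e-06). For both genes the mice of the groups did not overlap, and the spread within LZ was small beside the difference.

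**Figure D1:**
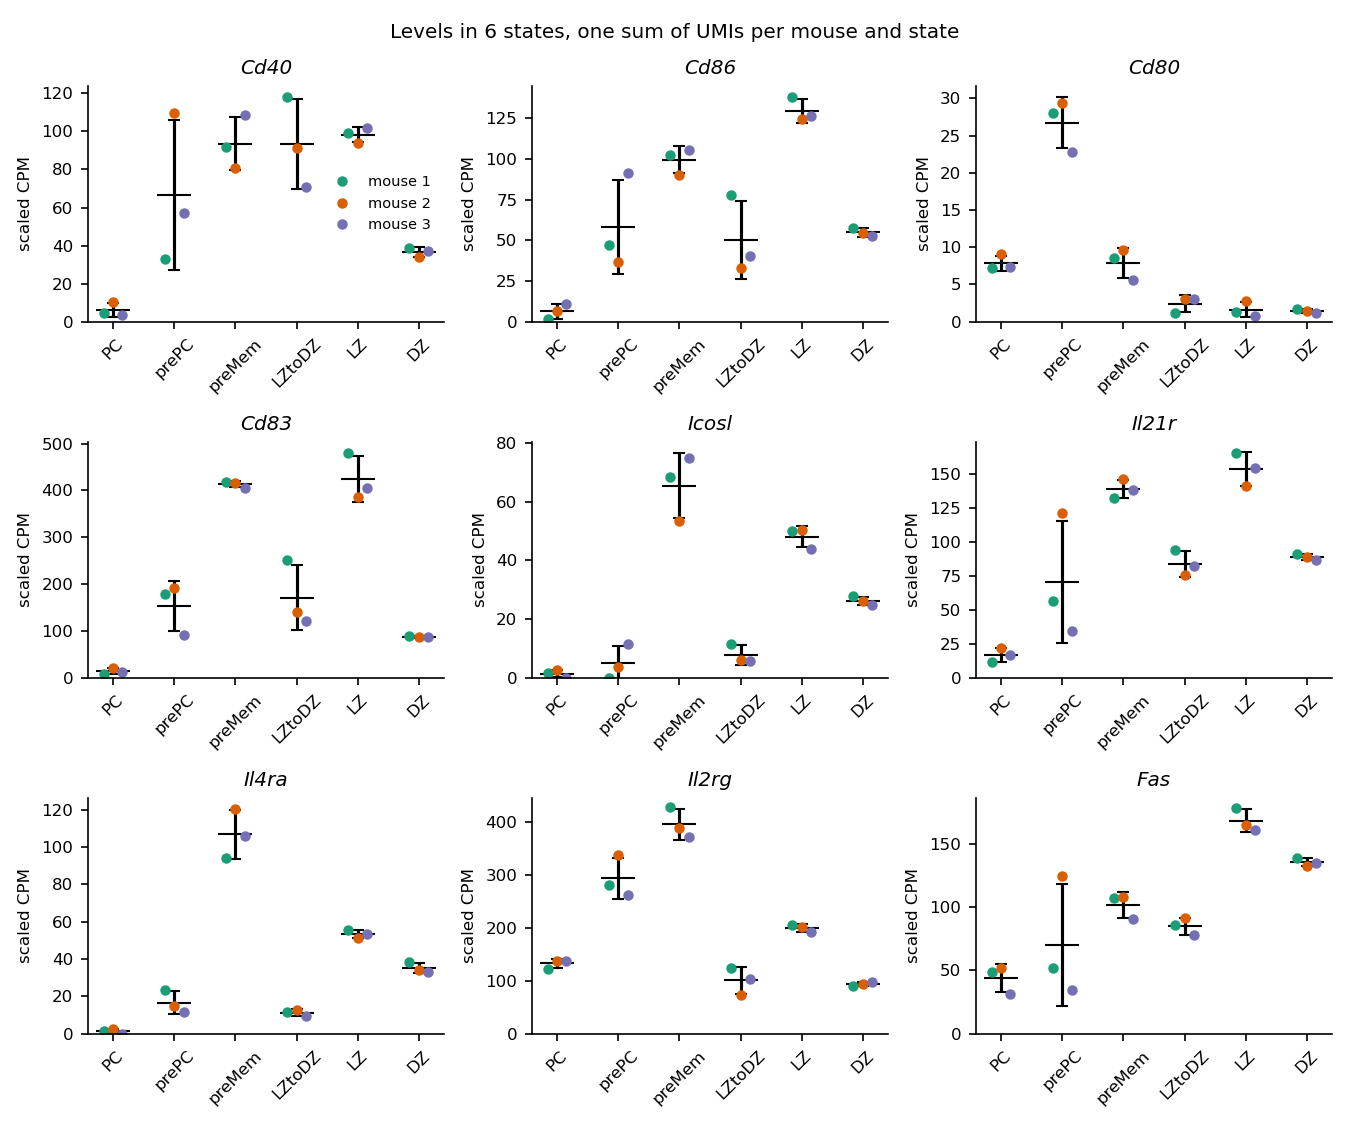
Levels of the 9 genes in PC, prePC, preMem, LZtoDZ, LZ and DZ, as scaled CPM on a linear axis from 0. Points are the 3 mice, bars the mean and SD. Cd83 averaged 423.6 CPM in LZ and 87.0 CPM in DZ, and prePC show a wide spread between mice for most genes.

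The cytokine receptors were also higher in LZ than in DZ. Il2rg had 205.6, 201.6 and 191.2 CPM in LZ and 89.6, 94.1 and 97.5 CPM in DZ (1.09 ± 0.15, adjusted p = 9.7e-05). Il21r had 165.5, 141.1 and 154.5 CPM in LZ against 91.3, 88.8 and 86.5 CPM in DZ (0.79 ± 0.12, adjusted p = 0.00029). Il4ra had 55.4, 51.1 and 53.5 CPM in LZ against 38.3, 34.3 and 33.0 CPM in DZ (0.61 ± 0.07, adjusted p = 2.5e-05). All 3 receptor chains thus lay above DZ in every mouse, although Il4ra missed the threshold when each cell was thinned to 2000 UMIs (0.32, adjusted p = 0.14). Icosl, the ligand of ICOS, had 49.9, 50.4 and 43.8 CPM in LZ and 27.7, 26.0 and 24.8 CPM in DZ (0.88 ± 0.09, adjusted p = 7.0e-06). Fas had 178.4, 165.0 and 161.1 CPM in LZ and 139.2, 132.6 and 134.7 CPM in DZ. Its difference of 0.31 ± 0.13 missed the threshold (adjusted p = 0.11) though the mice did not overlap, and it passed at 0.33 (adjusted p = 3.6e-05) when immunoglobulin genes were left out and at 0.31 (adjusted p = 0.020) with a minimum of 20 cells per sum. Cd80 was near 0 in both zones, with 27 UMIs in 2213 LZ cells and 44 in 3040 DZ cells (0.13 ± 0.32, adjusted p = 0.84).

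Genes of related pathways were counted in 4 lists, which include other receptors and ligands and are not all downstream of the 9 genes. Of 25 CD40 and NF-kB signalling genes tested, 14 were higher in LZ and 1 lower. Their median difference was 0.38 on the log2 scale, beside 0.02 for all genes tested. The inhibitor genes Nfkbid (32.8 ± 2.63 CPM in LZ and 6.54 ± 1.12 in DZ, SD, n = 3) and Nfkbia (251 ± 22.6 and 72.2 ± 2.35 CPM, in the same order) and the subunit genes Nfkb2 (65.2 ± 3.65 CPM in LZ, 24.1 ± 3.12 in DZ) and Relb (56.5 ± 4.39 CPM in LZ, 23.1 ± 2.30 in DZ) differed most. Of 27 JAK-STAT genes 10 were higher and 1 lower (median 0.45). Among them was Fcer2a, the gene of CD23 that IL-4 induces in B cells, with 209 ± 9.53 CPM in LZ and 57.9 ± 2.68 CPM in DZ. Of 22 other contact ligands and receptors 11 were higher and 1 lower (median 0.37), and of 17 genes of the Fas death pathway 4 were higher and none lower (median 0.10), Casp6 at 0.63 and Bid at 0.60. Counted per cell, where the median of all genes was -0.35, the 7 of the 9 genes remained higher in LZ, where 3.17% of all genes were higher and 46.7% lower, and the lists had 8 higher and 6 lower, 6 and 3, 4 and 4, and 0 and 7 genes, in the order above.

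LZtoDZ cells had lower shares of their RNA in 7 of the 9 genes than LZ cells, while Cd40 and Cd80 were not distinguished from LZ. Of all genes tested 46.8% were called in this comparison and 24.3% were lower, so a call is common here. Icosl had 11.6, 6.02 and 5.56 CPM in LZtoDZ of mice 1, 2 and 3, against 49.9, 50.4 and 43.8 CPM in LZ (-2.74 ± 0.22, adjusted p = 1.6e-07). Il4ra had 11.6, 12.8 and 9.26 CPM in LZtoDZ against 55.4, 51.1 and 53.5 CPM in LZ (-2.26 ± 0.16, adjusted p = 5.2e-08). These are the genes whose upstream sequences are printed above, and for both the highest LZtoDZ value was far below the lowest LZ value. Cd86 had 77.6, 33.1 and 40.1 CPM in LZtoDZ and 138.0, 124.7 and 126.2 CPM in LZ (-1.46 ± 0.17, adjusted p = 5.6e-06). Cd83 had 250.2, 140.7 and 121.0 CPM in LZtoDZ and 479.7, 386.6 and 404.5 CPM in LZ (-1.35 ± 0.24, adjusted p = 0.00026). In both costimulation genes mouse 1 was the highest of the LZtoDZ sums. The log2 fold changes of Il2rg (-1.003 ± 0.16, adjusted p = 8.0e-05), Fas (-0.99 ± 0.15, adjusted p = 5.4e-05) and Il21r (-0.89 ± 0.14, adjusted p = 0.00013) were smaller. Cd40 had 118.1, 91.1 and 71.0 CPM in LZtoDZ and 99.1, 94.1 and 101.9 CPM in LZ, values that overlap (-0.13 ± 0.16, adjusted p = 0.53).

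Depth moved with this comparison, since LZtoDZ cells held a median of 19103 UMIs and LZ cells 6258. With every cell thinned to 2000 UMIs the 7 genes were again called lower in LZtoDZ, where 18.3% of all genes were lower. The log2 fold changes lay between -2.09 for Il4ra and -0.65 for Fas, except for Icosl, which was then seen in 0.595% of LZtoDZ cells, and Cd86 lay near the threshold (-0.82, adjusted p = 0.049). When the sums were divided by the number of cells instead, the median log2 fold change of all genes was 1.43, with 83.5% of genes higher and 0.826% lower. On that scale only Icosl (-1.22 ± 0.25, adjusted p = 0.00021) and Il4ra (-0.75 ± 0.20, adjusted p = 0.0020) of the 9 genes were called lower in LZtoDZ. Icosl had 0.171 ± 0.054 UMIs per LZtoDZ cell and 0.384 ± 0.032 per LZ cell (SD, n = 3), and Il4ra 0.254 ± 0.043 and 0.426 ± 0.008 in the same order. Cd86 (0.05 ± 0.17, adjusted p = 0.77) and Cd83 (0.14 ± 0.23, adjusted p = 0.57) were not distinguished per cell. Cd40 was higher per cell at 2.09 ± 0.32 UMIs in LZtoDZ and 0.787 ± 0.040 in LZ (1.39 ± 0.16, adjusted p = 2.3e-07), as were Il21r (0.63), Fas (0.52), Il2rg (0.50) and Cd80 (2.26), in each case except Cd80 by less than the median of all genes. Per cell, then, the receptor and ligand genes differ among themselves: Icosl and Il4ra were scarcer in LZtoDZ cells and Cd40 more abundant.

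**Figure D2:**
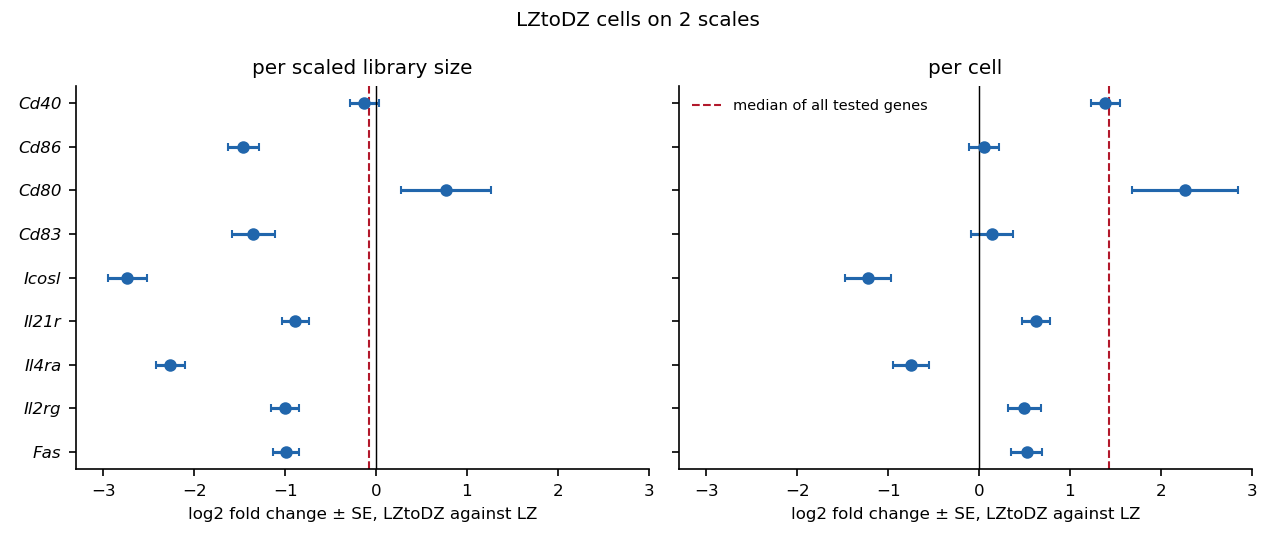
Log2 fold changes (± SE) of the 9 genes in LZtoDZ against LZ cells, per scaled library size on the left and per cell on the right, with the median of all tested genes as a dashed line. Icosl and Il4ra lie left of 0 in both panels, while Cd40 moves from -0.13 to 1.39.

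Among signalling genes, 1 of 25 CD40 and NF-kB genes was higher in LZtoDZ and 10 lower (median -0.41, against -0.08 over all genes). Rel had 54.2 ± 13.8 CPM in LZtoDZ and 129 ± 13.7 CPM in LZ, and Map3k14, the NF-kB inducing kinase, 6.61 ± 1.23 CPM in LZtoDZ and 18.7 ± 2.10 CPM in LZ. Of 27 JAK-STAT genes 3 were higher and 11 lower (median -0.44), of 22 contact genes 1 was higher and 15 lower (median -0.93), and of 17 Fas pathway genes 3 were higher and 7 lower (median -0.41). Efnb1, which encodes ephrin-B1, had 21.1 ± 15.3 CPM in LZtoDZ and 111 ± 4.73 CPM in LZ. Per cell, where the 83.5% of all genes given above were higher, these counts turn round, with 23 higher and 0 lower, 18 and 1, 12 and 2, and 15 and 1, in the order above, each list with a median below the 1.43 of all genes.

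In preMem, the IL-4 receptor chains were higher than in LZ and Fas was lower. Of the 9 genes 4 were higher and 1 lower, where 31.3% of all genes were called, 16.7% being higher and 14.7% lower. Il4ra had 94.0, 120.2 and 105.7 CPM in preMem of mice 1, 2 and 3, against 55.4, 51.1 and 53.5 CPM in LZ (1.02 ± 0.11, adjusted p = 4.9e-06). Il2rg had 427.4, 387.8 and 370.7 CPM in preMem against 205.6, 201.6 and 191.2 CPM in LZ (0.98 ± 0.15, adjusted p = 0.00015). Each preMem sum had a higher CPM of both receptor chains than any sum of another state. Fas had 106.8, 107.9 and 90.2 CPM in preMem against 178.4, 165.0 and 161.1 CPM in LZ (-0.73 ± 0.16, adjusted p = 0.0024). Cd80, a marker of memory B cell subsets in mice, had 8.55, 9.56 and 5.64 CPM in preMem against 1.25, 2.73 and 0.753 CPM in LZ (2.31 ± 0.46, adjusted p = 0.0013), with 15 UMIs in 396 preMem cells.

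Icosl had 68.4, 53.3 and 74.7 CPM in preMem and 49.9, 50.4 and 43.8 CPM in LZ, a difference near the threshold (0.45 ± 0.15, adjusted p = 0.037). Its call did not hold without mouse 1 (0.44, adjusted p = 0.11) or mouse 3 (0.25, adjusted p = 0.40), nor in G1 cells alone (0.08, adjusted p = 0.80), and per cell it was -0.29. Phase differed between these states, with 370 of 396 preMem cells and 1235 of 2213 LZ cells called G1. Within G1 cells Cd86 (-0.68 ± 0.14, adjusted p = 0.00079) and Il21r (-0.45 ± 0.13, adjusted p = 0.014) were lower in preMem, though over all phases they were not distinguished (-0.38, adjusted p = 0.12, and -0.14, adjusted p = 0.53). Il4ra (0.56), Il2rg (0.69), Cd80 (2.12) and Fas (-0.92) were called within G1 as well, where 19.5% of all genes were called. Counted per cell, Cd80 and Il4ra stayed higher in preMem, and Cd40, Cd86, Cd83, Il21r and Fas were called lower (-1.47 to -0.76, beside -0.70 for the median of all genes, of which 5.16% were higher and 57.8% lower). Il2rg lost its call on that scale (0.25 ± 0.18, adjusted p = 0.23). Cd40, with 91.9, 80.6 and 108.5 CPM in preMem, and Cd83, with 418.8, 415.2 and 405.9 CPM, overlapped with LZ and were not called.

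Of 27 JAK-STAT genes 14 were higher in preMem than in LZ and 1 lower (median 0.92, against 0.03 over all genes), among them Stat4 (19.8 ± 8.77 CPM in preMem, 2.75 ± 1.71 in LZ), the interferon receptor gene Ifnar2 (40.2 ± 8.41 in preMem, 7.49 ± 1.08 in LZ) and Il10ra (47.1 ± 14.7 in preMem, 10.2 ± 1.78 in LZ). Of 22 contact genes 13 were higher and 2 lower (median 0.63), such as Slamf6 with 242 ± 14.7 CPM in preMem and 90.9 ± 1.94 CPM in LZ. Of 25 CD40 and NF-kB genes 2 were higher and 1 lower (median 0.09), and of 17 Fas pathway genes 4 were higher and 3 lower (median 0.13). Per cell, on the scale on which 57.8% of all genes were lower, the counts of higher and lower genes were 7 and 5 for JAK-STAT, 8 and 9 for contact, 0 and 19 for CD40 and NF-kB and 0 and 10 for Fas pathway genes.

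In prePC, Cd80 and Il2rg were higher than in LZ, and Cd86, Cd83, Icosl, Il21r, Il4ra and Fas were lower. Of all genes 13.4% were called, 8.08% being higher and 5.3% lower. These values rest on 17, 22 and 10 cells of mice 1, 2 and 3, and 40 of the 49 cells belong to the authors' cluster that also holds 374 of the 396 preMem cells. Cd80 had 28.1, 29.3 and 22.8 CPM in prePC, against 1.25, 2.73 and 0.753 CPM in LZ (4.04 ± 0.50, adjusted p = 4.1e-05). The prePC sums held 6, 8 and 2 UMIs of Cd80, in 13 of 49 cells, so that 16 of the 128 Cd80 UMIs of the matrix came from these few cells. Cd83 had 177.8, 190.6 and 91.3 CPM in prePC against 479.7, 386.6 and 404.5 CPM in LZ (-1.41 ± 0.27, adjusted p = 0.0017). Cd86 had 46.8, 36.7 and 91.3 CPM in prePC against 138.0, 124.7 and 126.2 CPM in LZ (-1.40 ± 0.33, adjusted p = 0.0085). The CD28 ligands thus differed from LZ in opposite directions.

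Icosl was close to undetected in prePC, with 0, 1 and 1 UMIs in mice 1, 2 and 3, and pooled over mice it was 13.6-fold lower than in LZ (counting interval 3.75 to 112). Il4ra had 23.4, 14.7 and 11.4 CPM in prePC against 55.4, 51.1 and 53.5 CPM in LZ (-1.63 ± 0.32, adjusted p = 0.0024), while its partner chain Il2rg had 280.7, 337.2 and 262.4 CPM in prePC against 205.6, 201.6 and 191.2 CPM in LZ (0.58 ± 0.16, adjusted p = 0.027). The receptor chains thus did not move together. Il21r had 56.1, 121.0 and 34.2 CPM in prePC against 165.5, 141.1 and 154.5 CPM in LZ (-0.91 ± 0.23, adjusted p = 0.015), and Fas 51.5, 124.6 and 34.2 CPM in prePC against 178.4, 165.0 and 161.1 CPM in LZ (-1.07 ± 0.23, adjusted p = 0.0038). In both genes mouse 2 lay close to LZ and the other mice far below it. Cd40 had 32.7, 110.0 and 57.1 CPM in prePC, a spread that spans the LZ values (-0.44 ± 0.32, adjusted p = 0.44).

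Per cell, where 18.6% of all genes were higher and 1.03% lower, Cd80, Il2rg, Cd83 (-0.86, adjusted p = 0.030), Icosl and Il4ra (-1.08, adjusted p = 0.045) kept their calls. Cd86 (-0.85, adjusted p = 0.064), Il21r (-0.36, adjusted p = 0.35) and Fas (-0.53, adjusted p = 0.16) missed the threshold on that scale.

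Single mice decided several of these prePC calls. Without mouse 1, Il21r (-0.61, adjusted p = 0.23), Fas (-0.76, adjusted p = 0.15) and Il2rg (0.65, adjusted p = 0.070) missed the threshold. Without mouse 2, Cd86 (-1.16, adjusted p = 0.16), Il4ra (-1.47, adjusted p = 0.069) and Il2rg (0.47, adjusted p = 0.16) did, while Il21r (-1.70) and Fas (-1.90) were further from 0. Without mouse 3, Il21r (-0.74, adjusted p = 0.14) and Il2rg (0.60, adjusted p = 0.12) did. Cd80, Cd83 and Icosl were called in each of these settings. Cd86 (-1.55, adjusted p = 0.063) and Il4ra (-1.15, adjusted p = 0.075) also missed the threshold when cells with RNA of other types were left out.

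Against preMem, the state they resemble in pre-memory markers, prePC were lower in Cd83, Icosl and Il4ra and higher in Cd80, where 6.07% of all genes were called, 3.33% being higher and 2.74% lower. Il4ra had the 11.4 to 23.4 CPM given above in prePC and 94.0 to 120.2 CPM in preMem (-2.65 ± 0.30, adjusted p = 0.00012). Icosl was 18.6-fold lower in prePC than in preMem (counting interval 5.05 to 156), and Cd83 differed by -1.39 ± 0.27 (adjusted p = 0.0059). Il4ra and Icosl were thus near opposite ends of their range in these states. Cd80 differed by 1.73 ± 0.48 (adjusted p = 0.045), a call lost without any 1 of the mice (1.65 to 1.87, adjusted p = 0.14 to 0.27). That call was kept in only 3 of 14 alternatives. Cd83 missed the threshold without mouse 3 (-1.19, adjusted p = 0.064) and in 4 other settings (lowest adjusted p = 0.052, after thinning). Per cell, where 51.2% of all genes were higher and 0.248% lower, Cd83 was not distinguished (-0.09, adjusted p = 0.79), Il4ra was still lower (-1.36, adjusted p = 0.0049) and Cd40, Il2rg and Fas were called higher in prePC. Cd40 (-0.37, adjusted p = 0.62), Cd86 (-1.03, adjusted p = 0.12), Il21r (-0.77, adjusted p = 0.086), Il2rg (-0.41, adjusted p = 0.17) and Fas (-0.34, adjusted p = 0.51) were not called.

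Of 27 JAK-STAT genes 6 were higher in prePC than in LZ and 1 lower (median 0.58, against -0.08 over all genes). The IL-6 receptor gene Il6ra had 33.2 ± 10.6 CPM in prePC and 4.16 ± 0.07 CPM in LZ, and Il2rb, the beta chain of the IL-2 receptor, 18.2 ± 12.8 CPM in prePC and 1.86 ± 0.24 CPM in LZ. Of 22 contact genes 5 were higher and 3 lower (median 0.03). Of 25 CD40 and NF-kB genes none was higher and 1 was lower (median -0.29), Rela with 34.9 ± 2.29 CPM in prePC and 65.7 ± 2.37 CPM in LZ, and of 17 Fas pathway genes 1 was lower, Bid (-0.80). Per cell, where 18.6% of all genes were higher and their median was 0.46, the counts of higher and lower genes were 12 and 1 for JAK-STAT, 9 and 1 for contact, 1 and 0 for CD40 and NF-kB and 3 and 0 for Fas pathway genes.

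PC had little RNA of most of these genes. Relative to LZ, 8 of the 9 were lower and Cd80 was higher, where 53.3% of all genes were called, 26.9% being lower and 26.4% higher. Cd83 had 7.20, 20.6 and 12.9 CPM in PC of mice 1, 2 and 3, against 479.7, 386.6 and 404.5 CPM in LZ (-4.94 ± 0.32, adjusted p = 2.1e-09). Cd86 had 1.44, 6.45 and 11.02 CPM in PC against 138.0, 124.7 and 126.2 CPM in LZ (-4.43 ± 0.34, adjusted p = 1.6e-08), and Cd40 4.32, 10.3 and 3.67 CPM in PC against 99.1, 94.1 and 101.9 CPM in LZ (-3.93 ± 0.36, adjusted p = 1.5e-07). Every PC value of these 3 genes lay far below every LZ value. Icosl and Il4ra each had 1, 2 and 0 UMIs in PC. Pooled, Icosl was 31.8-fold lower than in LZ (counting interval 10.8 to 154) and Il4ra 35.7-fold lower (12.2 to 173).

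Il2rg and Fas had the smallest of the 8 decreases in PC. Il2rg had 122.3, 138.0 and 137.7 CPM in PC against 205.6, 201.6 and 191.2 CPM in LZ (-0.59 ± 0.16, adjusted p = 0.0050), and per cell it was not lower (0.31). The common gamma chain also serves other cytokine receptors, and its PC level lay above the 89.6 to 97.5 CPM of DZ. Fas had 48.9, 51.6 and 31.2 CPM in PC against 178.4, 165.0 and 161.1 CPM in LZ (-1.92 ± 0.18, adjusted p = 2.1e-07), and Il21r 11.5, 21.9 and 16.5 CPM in PC against 165.5, 141.1 and 154.5 CPM in LZ (-3.19 ± 0.23, adjusted p = 6.9e-09). Cd80 had 7.20, 9.03 and 7.35 CPM in PC, 16 UMIs in all, against 1.25, 2.73 and 0.753 CPM in LZ (2.30 ± 0.45, adjusted p = 0.00048). In G1 cells alone, where 46% of all genes were called, Cd80 was not (1.19, adjusted p = 0.26).

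The barcodes fall into 2 series with 0 shared barcodes, and no label says which sorted well each series came from. The second holds 117 of the 137 PC, so for most PC the series and the state cannot be told apart. In the 117 PC of the second series 39.4% of UMIs were immunoglobulin and the median depth was 24606 UMIs, against 11.4% and 15979 UMIs in the 20 PC of the first. With immunoglobulin genes taken out of the total, Cd40 had 2.20 CPM in PC of the second series and 28.8 CPM in PC of the first, Cd83 4.41 and 63.9 CPM, Il21r 11.6 and 41.5 CPM, Il2rg 112 and 205 CPM and Fas 39.7 and 60.7 CPM, each in the same order. Cd86 had 1.65 and 28.8 CPM, Cd80 5.51 and 19.2 CPM, and Icosl and Il4ra each 0.551 and 6.39 CPM, again with the second series first. The PC that shared a barcode series with LZ thus had the higher pooled level of each of the 9 genes. Without the second series PC were left as 1 sum of 11 cells of mouse 2, and 3 of the 9 genes were called against LZ, where 7.12% of all genes were. The spread of that 1 sum is assumed to be like that of the other groups. There Cd40 (-1.24, adjusted p = 0.27), Icosl (-2.05, adjusted p = 0.15), Il4ra (-2.21, adjusted p = 0.056), Fas (-1.23, adjusted p = 0.061) and Cd80 (2.57, adjusted p = 0.31) missed the threshold and Il2rg was 0.10 (adjusted p = 0.92).

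Relative to prePC, PC were lower in 8 of the 9 genes, all but Icosl, where 26% of all genes were called and 12.2% were lower. The log2 fold changes were -3.53 ± 0.34 for Cd83, -3.51 ± 0.71 for Il4ra, -3.49 ± 0.58 for Cd40, -3.03 ± 0.63 for Cd86, -2.28 ± 0.35 for Il21r, -1.75 ± 0.48 for Cd80, -1.16 ± 0.17 for Il2rg and -0.85 ± 0.28 for Fas. Fas missed the threshold without mouse 2 (-0.16, adjusted p = 0.86) or mouse 3 (-0.84, adjusted p = 0.076), Cd80 without mouse 1 (-1.63, adjusted p = 0.14) or mouse 2 (-1.82, adjusted p = 0.097) and Il4ra without mouse 1 (-3.16, adjusted p = 0.057). Without the second barcode series, with PC again 1 sum, none of the 8 was called with edgeR, where 2.35% of all genes were (-1.51 to -0.14, adjusted p = 0.53 to 0.96).

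**Figure D3:**
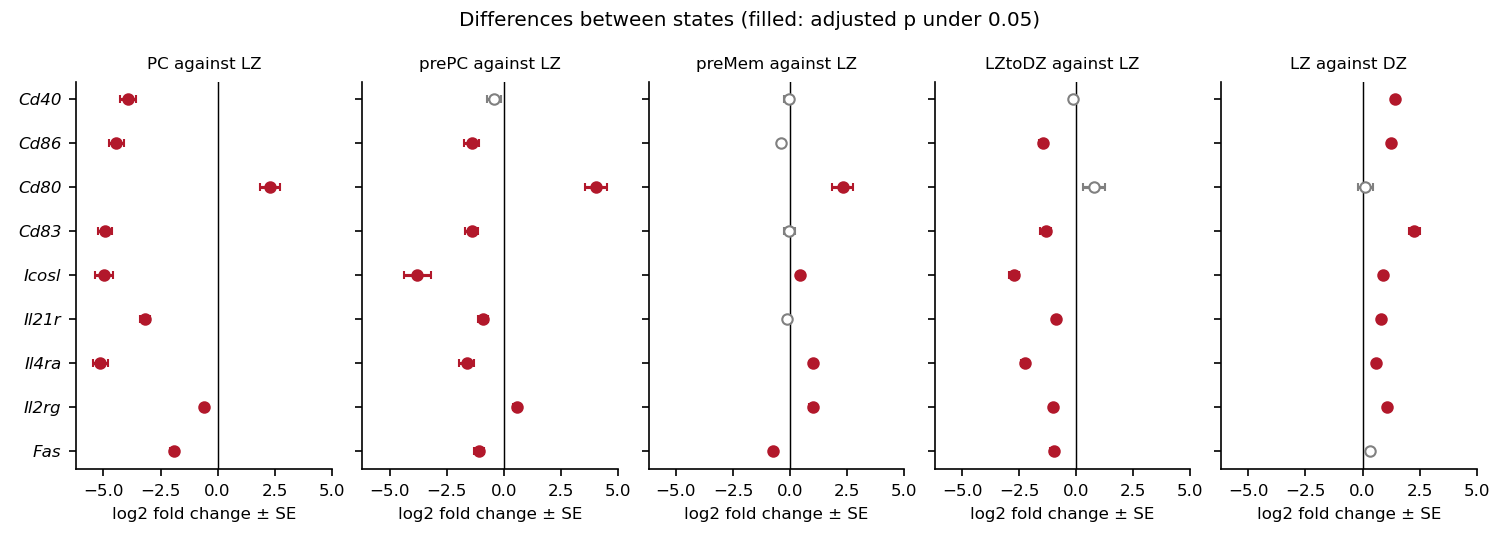
Log2 fold changes (± SE) of the 9 genes in PC, prePC, preMem and LZtoDZ against LZ and in LZ against DZ; filled points have an adjusted p under 0.05. Cd80 lies right of 0 in every panel and is filled in the first 3, while Fas lies left of 0 in the first 4.

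The genes of the 4 lists moved in both directions in PC. Of 25 CD40 and NF-kB genes 1 was higher than in LZ and 17 were lower (median -1.09, against -0.09 over all genes), with Rel at 12.8 ± 6.36 CPM in PC and 129 ± 13.7 CPM in LZ and Nfkb2 at 7.28 ± 4.36 CPM in PC and 65.2 ± 3.65 CPM in LZ. Of 27 JAK-STAT genes 12 were higher and 10 lower (median 0.26). Il6st, the signalling chain of the IL-6 receptor, had 24.3 ± 17.8 CPM in PC and 0.739 ± 0.657 CPM in LZ, and Ifnar2 81.4 ± 29.6 CPM in PC and 7.49 ± 1.08 CPM in LZ. Of 22 contact genes 9 were higher and 12 lower (median -2.11), with Cd274, the gene of PD-L1, at 36.2 ± 13.8 CPM in PC and 1.68 ± 0.93 CPM in LZ. Of 17 Fas pathway genes 4 were higher and 4 lower (median -0.03), and Cflar, an inhibitor of death receptor signalling, had 92.6 ± 14.8 CPM in PC and 38.6 ± 1.28 CPM in LZ. Per cell, where the median of all genes was 0.80 and 56% were higher and 8.11% lower, the counts of higher and lower genes were 7 and 9, 14 and 5, 9 and 11, and 10 and 1, in the order above.

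Ranked by mean level over the 6 states, the genes followed different orders. In the comparisons of neighbouring states not given above, the share of all genes called was 50.3% for PC against preMem, 50.1% for PC against LZtoDZ, 54.2% for PC against DZ, 28.1% for prePC against LZtoDZ, 17.8% for prePC against DZ, 55.2% for preMem against LZtoDZ, 40.1% for preMem against DZ and 45.1% for LZtoDZ against DZ. Cd40 was highest in LZ, followed by preMem, LZtoDZ, prePC, DZ and PC, and of the neighbours in this order only PC and DZ differed. Cd83 ran from LZ and preMem, which were not distinguished, to LZtoDZ and prePC, also not distinguished, then DZ, then PC, with a called step between these 4 levels. Il21r had its highest levels in LZ and preMem, middle levels in DZ, LZtoDZ and prePC and its lowest in PC, and neighbours within a level were not distinguished. For Cd86 the order was LZ, preMem, prePC, DZ, LZtoDZ and PC, with only the last step called. These 4 genes share LZ at the top and PC at the bottom.

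The order of the other genes did not start with LZ, apart from Fas. Icosl fell in called steps through preMem, LZ, DZ and LZtoDZ, after which prePC and PC were not distinguished from their neighbours. Its step from preMem to LZ was near the threshold and kept in 7 of 15 alternatives. Il4ra ran through preMem, LZ and DZ in called steps, and prePC was distinguished neither from DZ (-1.02, adjusted p = 0.065) nor from LZtoDZ, with PC below. Il2rg was highest in preMem and prePC, which were not distinguished, then in LZ, PC and LZtoDZ in called steps, with DZ not distinguished from LZtoDZ. The step from PC to LZtoDZ was near the threshold (0.42 ± 0.16, adjusted p = 0.045) and the mice overlapped. That from prePC to LZ was lost without any 1 mouse, as given above. Cd80 was highest in prePC, then in preMem and PC, which were not distinguished, and then in LZtoDZ, LZ and DZ, which were not distinguished either. Its step from prePC to preMem was kept in only 3 of 14 alternatives. Fas began with LZ and DZ, not distinguished, followed by preMem, LZtoDZ and prePC, not distinguished from each other in turn, and PC.

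The share of cells with at least 1 UMI moved with depth, so it is given with the share after thinning to 2000 UMIs per cell, which left out 20 LZ, 14 DZ and 9 preMem cells. Cd83 was seen in 83.6% ± 0.87 of LZ cells and 48.3% ± 0.84 of DZ cells (SD, n = 3), and in 11.7% ± 5.94 of PC despite their greater depth. After thinning these shares were 55.1% in LZ, 18.7% in DZ and 2.73% in PC. At equal depth the share of cells with a Cd83 UMI was thus highest in LZ of these 3 states. No cell type that lacks these genes was at hand to give the share that free RNA adds. Icosl was seen in 30.0% of LZ cells, 14.0% of LZtoDZ cells and 1.87% of PC, and after thinning in 11.6%, 0.595% and 0%, in the same order. Il2rg was seen in 78.1% of preMem and 72.7% of LZ cells, and after thinning in 52.5% and 36.1%.

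Cell cycle phase, as called by the authors, was compared within LZ and within DZ cells, in a fit of sums per mouse, state and phase with 9374 genes. Within DZ, S cells were lower than G1 cells in 5 of the 9 genes and G2M cells in 7, where 29.1% and 29.9% of all genes were called and 12.2% and 14% were lower. Within LZ, S cells were lower than G1 cells in 6 and G2M cells in 6, where 24.6% and 25.6% were called and 10.1% and 11.7% were lower. As a share of RNA, none of the 9 was called higher outside G1, and phases were not tested per cell. Il4ra averaged 71.4 ± 2.1 CPM in G1, 47.5 ± 0.70 in S and 30.4 ± 3.0 in G2M among LZ cells, and 66.1 ± 12.2, 35.7 ± 2.0 and 20.7 ± 2.4 CPM in G1, S and G2M among DZ cells (SD, n = 3 mice each). Its log2 fold change in G2M against G1 was -1.20 ± 0.16 in LZ (adjusted p = 1.6e-06) and -1.62 ± 0.12 in DZ (adjusted p = 5.9e-11). As a share of RNA, both zones thus showed a stepwise decline from G1 to G2M in this receptor. By count, the 1235 G1, 735 S and 243 G2M cells of LZ held 534, 325 and 88 Il4ra UMIs. The 1078 G1, 950 S and 1012 G2M cells of DZ held 472, 375 and 249. In LZ, pooled UMIs per cell were thus no lower in S than in G1, while in DZ they fell at each step.

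Icosl and Il21r followed the same order of phases. Icosl averaged 65.0, 43.6 and 24.1 CPM in G1, S and G2M of LZ and 43.5, 26.6 and 19.2 CPM in those of DZ, and G2M was lower than G1 by -1.35 ± 0.18 in LZ (adjusted p = 2.6e-06) and -1.19 ± 0.14 in DZ (adjusted p = 4.3e-07). Il21r averaged 195, 140 and 113 CPM in the phases of LZ and 142, 95.5 and 63.6 CPM in those of DZ, with -0.84 ± 0.12 in LZ and -1.16 ± 0.11 in DZ for G2M against G1. Cd86, Cd83 and Il2rg were also lower in G2M than in G1 in both zones, by -0.98, -0.72 and -0.52 in LZ and -0.92, -0.97 and -0.47 in DZ. These are shares of RNA. Pooled UMIs per cell were higher in G2M than in G1 for Il2rg in both zones and for Cd83 and Il21r in LZ. They were lower in G2M for Cd83 and Il21r in DZ and for Icosl and Cd86 in both zones. Cd80 was called lower in S (-1.21) and G2M (-1.37) of DZ, on 12 UMIs in each against 20 in G1, and its G2M call was lost without any 1 mouse. The S call, near the threshold (adjusted p = 0.048), was kept in 3 of 10 alternatives, with adjusted p up to 0.37.

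Cd40 and Fas were the genes with no called difference between G2M and G1 in either zone. Cd40 averaged 116, 82.5 and 111 CPM in G1, S and G2M of LZ and 42.2, 34.9 and 40.5 CPM in those of DZ. G2M differed from G1 by -0.11 ± 0.14 in LZ (adjusted p = 0.63) and -0.08 ± 0.14 in DZ (adjusted p = 0.75), whereas S was lower than G1 in LZ (-0.51 ± 0.12, adjusted p = 0.0025). Fas averaged 181, 175 and 154 CPM in G1, S and G2M of LZ and 151, 140 and 144 CPM in those of DZ, and no phase contrast of Fas was called, with -0.22 ± 0.10 in LZ (adjusted p = 0.12) and -0.07 ± 0.10 in DZ (adjusted p = 0.67) for G2M against G1. Without mouse 3 the calls in LZ were lost for Cd40 (-0.36, adjusted p = 0.11), Il21r (-0.48, adjusted p = 0.051) and Il2rg (-0.43, adjusted p = 0.14) in S, and for Cd83 (-0.60, adjusted p = 0.22) and Il2rg (-0.59, adjusted p = 0.050) in G2M. Il2rg in G2M of DZ was lost as well (-0.36, adjusted p = 0.22).

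**Figure D4:**
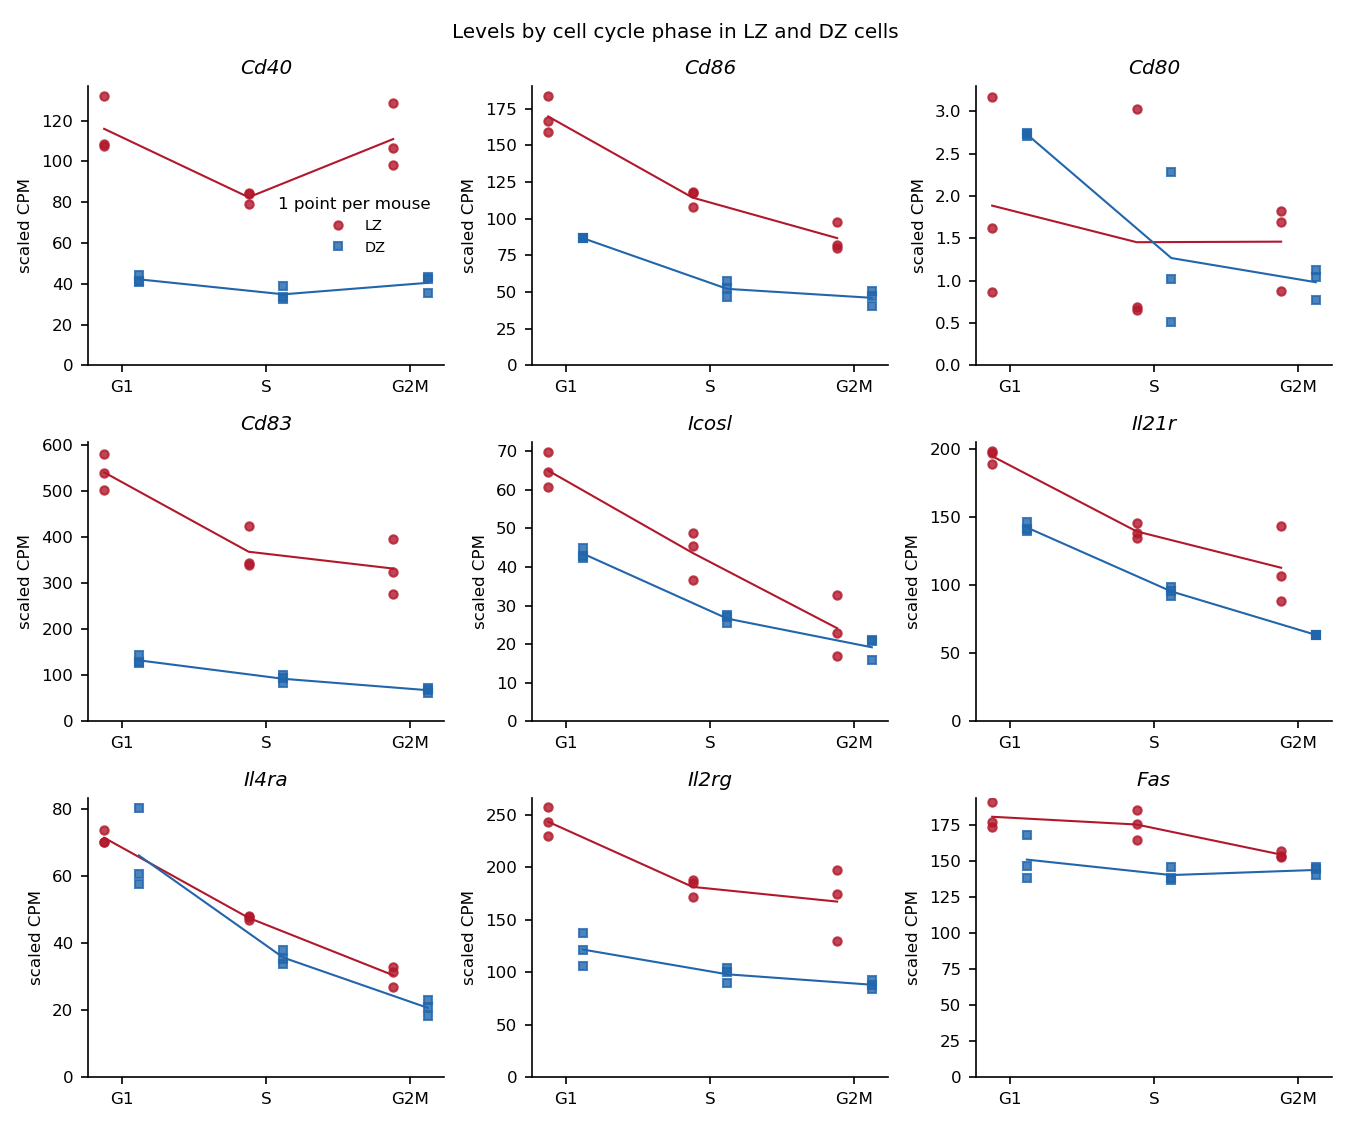
Scaled CPM of the 9 genes in G1, S and G2M cells of LZ (circles) and DZ (squares), 1 point per mouse, with lines through the means. Il4ra, Icosl and Il21r decline from G1 to G2M in both zones, and Fas stays between 137 and 191 CPM in all 6 groups.

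The difference between LZ and DZ was also read within each phase, since 1235 of 2213 LZ cells and 1078 of 3040 DZ cells were in G1. In G1 6 of the 9 genes were higher in LZ, in S 8 and in G2M 5, where 12.4%, 8.99% and 8.56% of all genes were called and 5.98%, 4.18% and 3.53% were higher. Cd83 differed by 2.03, 1.98 and 2.28, Cd40 by 1.46, 1.25 and 1.43, Il2rg by 0.99, 0.88 and 0.94, Cd86 by 0.96, 1.15 and 0.89 and Il21r by 0.45, 0.55 and 0.77 in G1, S and G2M. These 5 genes were called in every phase. Icosl was called in G1 (0.58) and S (0.68) and not in G2M (0.42, adjusted p = 0.25). Il4ra was called in S alone (0.41 ± 0.12, adjusted p = 0.032), with 0.13 ± 0.11 (adjusted p = 0.51) in G1, so that LZ and DZ cells in G1 were not distinguished in this gene. Fas was called in S alone (0.32 ± 0.10, adjusted p = 0.041), and both S calls were lost without any 1 mouse. Without mouse 3 Il21r was not called in G1 (0.42, adjusted p = 0.13) or S (0.54, adjusted p = 0.075), and without mouse 2 Icosl was not called in S (0.60, adjusted p = 0.054). A test of whether the difference between LZ and DZ changed with phase called none of the 9 genes with edgeR's quasi-likelihood test or with DESeq2, and none had an unadjusted p under 0.05. The lowest adjusted p was 0.954 for S and 0.512 for G2M against G1, and 0.0107% and 0.128% of all genes were called.

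Within LZ the genes varied along the authors' LZ score, whose genes are not given and may include some of the 9, so these values are a description. LZ cells were divided by the score into 5 bins of equal size. From the lowest to the highest bin, Cd83 averaged 198 ± 17.3, 363 ± 62.3, 431 ± 23.3, 619 ± 36.3 and 930 ± 90.0 CPM (SD, n = 3), here as plain CPM. Cd40 averaged 60.0 ± 6.9, 76.0 ± 6.1, 93.7 ± 20.7, 133 ± 11.03 and 227 ± 27.6 CPM. Il2rg averaged 124 ± 10.3, 183 ± 7.2, 218 ± 11.6, 275 ± 11.8 and 383 ± 17.2 CPM. The mean of these genes was higher in each bin than in the one below it. Icosl averaged 36.8 ± 4.8 CPM in the lowest and 70.4 ± 7.6 CPM in the highest bin. Il4ra, with 53.9 ± 7.0 and 63.1 ± 6.1 CPM, and Fas, with 181 ± 17.4 and 186 ± 5.1 CPM in the lowest and highest bin, stayed nearly level. The median depth ran from 8222 UMIs per cell in the lowest bin to 5805 in the highest.

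**Figure D5:**
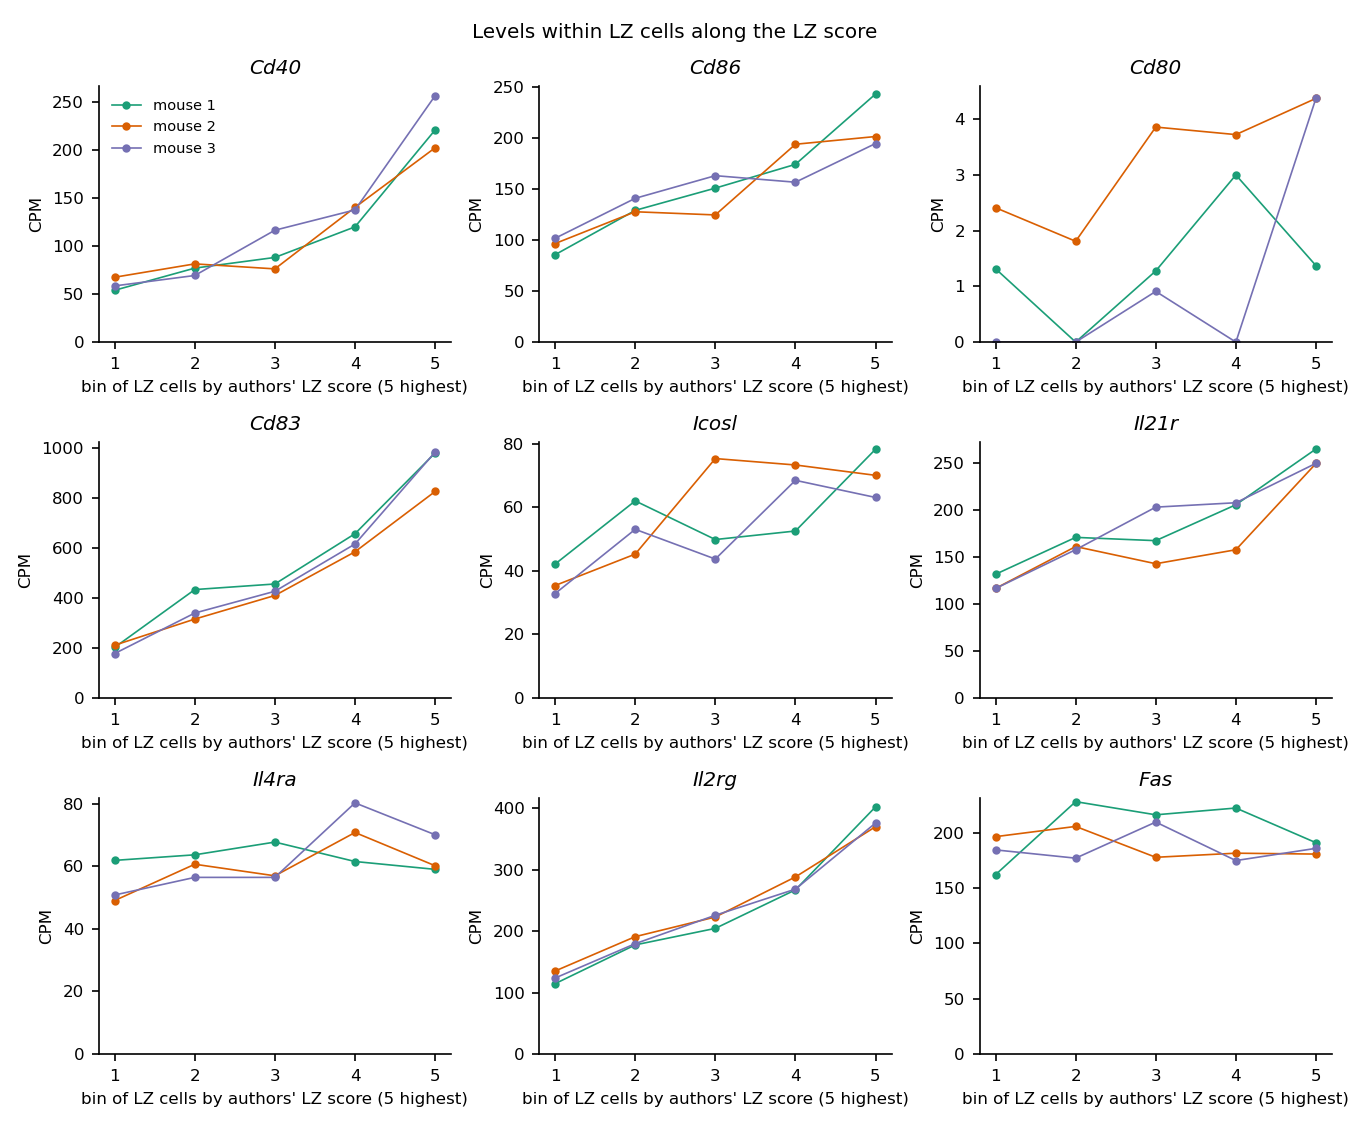
CPM of the 9 genes in LZ cells by bin of the authors' LZ score, from lowest (1) to highest (5), 1 line per mouse. Cd83 runs from a mean of 198 to 930 CPM and Cd40 from 60.0 to 227 CPM, while Fas is near level.

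The genes with the most similar pattern were sought by Pearson's correlation of log2 CPM over the 18 sums among 4835 genes, as a description, since sums share mice and states. The closest to Cd83 were Swap70 (0.97), Fcer2a (0.97) and Relb (0.96), and the closest to Cd40 were Apbb1ip (0.94), Cd83 (0.93) and Swap70 (0.93). The closest to Cd80 were Plac8 (0.92), S100a6 (0.92) and S100a11 (0.91). Icosl was most like Cr2 (0.95), Il21r most like Eml4 (0.97), Cd86 most like Lcp1 (0.97), Il2rg most like Hhex (0.94) and Fas most like Lpp (0.94). Among the 9 genes, the correlation over sums was 0.93 between Cd40 and Cd83, 0.92 between Cd86 and Cd83 and -0.19 between Cd40 and Cd80.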

How the data were processed

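RNA was measured with the 10x Genomics 5' workflow in 12 libraries in 6 groups, for mRNA, hashtags and B cell receptors in PC and non-PC fractions, and 1 pooled matrix was analysed. The matrix deposited by the authors holds UMI counts that were not normalized, and the sums equal the deposited totals in 6000 cells. Mouse, state, phase, cluster and signature scores per cell were deposited by the authors, without the genes behind each score. The submitters' processing notes list Cell Ranger, Seurat and the builds mm10 and GRCm38, with no version or role. How cells were filtered and doublets treated is not given in the sources used here, and no cells were removed or clustered again. The mice gave 1491, 2079 and 2430 cells with 12669908, 18664942 and 20638376 UMIs.

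UMIs were summed per mouse and state, or mouse, state and phase, keeping sums of at least 10 cells. Each kind of sum was fitted once with edgeR 4.0.16 in R 4.3.3 (filterByExpr with a minimum count of 10, TMM, glmQLFit, glmQLFTest, Benjamini-Hochberg over all genes tested, threshold 0.05), with group and mouse as terms. All 9 genes passed the filter, Cd80 with 128 UMIs in all. Sums with 1 mouse number share an animal, which pairs them. On 5074 genes, deviations from the state means correlated with a median r of 0.0625 in the 45 pairs within a mouse (lowest -0.111) and of -0.0384 in the 90 pairs between mice. Where the lower state had 1 to 3 UMIs, pooled ratios with exact 95% binomial intervals are given, which cover counting error only. DESeq2 1.42.0 was an alternative. The others were RLE factors, no replicate block, no filter, a minimum of 20 cells, leaving out each mouse, immunoglobulin genes, cells with at least 2 UMIs of other cell types or the second barcode series, and thinning to 2000 UMIs per cell. Scaling by cell number, prePC without those outside the pre-memory cluster, not counting Flt3 as other-type RNA, and single phases were added after the data had been seen. Simulated counts, 200 genes of them changed, were used to check the fit.

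The 9 genes, by a rule without measured values, and the 4 pathway lists were chosen with earlier results of these data known. From each list up to 4 genes with the largest called change could be named, and the genes most like each of the 9 were sought among those with a mean of at least 20 CPM, leaving out immunoglobulin genes. Upstream sequences are from RefSeq.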

Additional observations from a re-analysis of the deposited data

How the results depend on the processing

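Of 144 values (9 genes in 16 comparisons) 91 were called, and 40 of these kept their call and direction under every alternative run. Of the 1198 alternative values of called results 1071 kept both, 118 kept the direction and lost the call, and 9 changed direction. Thinning to 2000 UMIs gave the most losses, 26 of the 118.

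With a minimum of 20 cells prePC were left with the sum of mouse 2 alone, so the number called there is not given. The number of the 9 genes called in prePC against LZ was 8, where 1134 of all 8473 genes were called. It became 3 after thinning, where 332 of 3354 were, and 5 per cell, where 1661 of 8473 were. For prePC against preMem it was 4, where 514 of 8473 genes were called. It became 1 after thinning, where 87 of 3354 were, and 2 without the prePC outside the pre-memory cluster, where 347 of 8898 were. It fell to 3 of 5 for preMem against LZ, to 1 of 8 for PC against prePC, to 3 of 5 for S against G1 in DZ and to 3 of 8 for LZ against DZ in S after thinning. Without the second barcode series it was 0 of 8 for PC against prePC and 3 of 9 for PC against LZ. Leaving out each mouse in turn gave 5 to 6 for prePC against LZ, 2 to 4 for prePC against preMem, 5 to 6 for LZ against DZ in S and 3 to 7 for S against G1 in LZ. Over all genes, of which 8229 to 9130 were tested, these settings gave 605 to 790, 113 to 385, 280 to 551 and 1204 to 1825, in the same order. After thinning, 986 and 636 of 3354 genes were called in preMem against LZ and PC against prePC, beside 2653 and 2201 of 8473. For S against G1 in DZ and LZ against DZ in S they were 881 and 133 of 7592, beside 2729 and 843 of 9374. Cd80 was not tested after thinning and counts as not called there.

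Scaled by the number of cells, LZtoDZ against LZ changed sign for Cd40 (1.39), Cd86 (0.055), Cd83 (0.14), Il21r (0.63), Il2rg (0.50) and Fas (0.52), preMem against LZ for Icosl (-0.29), PC against LZ for Il2rg (0.31), and prePC against preMem for Cd40 (0.91), Il2rg (0.86) and Fas (0.94). After thinning, Il4ra in LZ against DZ in S was -0.041, and without the second barcode series Il2rg in PC against LZ was 0.10. Per cell the median of all genes was 1.43 in LZtoDZ, -0.70 in preMem, 0.46 in prePC and 0.80 in PC against LZ, -0.35 in LZ against DZ, 1.20 in prePC against preMem and 0.36 in PC against prePC. The share of called genes that were higher then became 99.0% in LZtoDZ, 8.19% in preMem, 94.8% in prePC and 87.4% in PC against LZ (48.1%, 53.2%, 60.4% and 49.6% by library size), 6.36% in LZ against DZ (58.0%), 99.5% in prePC against preMem (54.9%) and 74.0% in PC against prePC (52.9%). With RLE factors it was 58.8% for LZ against DZ in S (46.5% with TMM).

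Over all alternatives other than scaling by the number of cells, the genes called ranged from 634 to 2549 in LZ against DZ (1646 as reported), 1199 to 4208 in LZtoDZ (3969), 986 to 2980 in preMem (2653), 332 to 1406 in prePC (1134) and 663 to 5088 in PC (4518) against LZ, 87 to 835 in prePC against preMem (514) and 219 to 2369 in PC against prePC (2201). Scaled by the number of cells, the genes called were 4229, 7144, 5336, 1661, 5434, 4360 and 2400, in the order above. By phase they ranged from 881 to 3422 for S (2729) and 1025 to 3426 for G2M (2804) against G1 in DZ, 806 to 2838 for S (2305) and 877 to 2695 for G2M (2404) in LZ, and 339 to 1707 (1160), 133 to 1378 (843) and 138 to 1103 (802) for LZ against DZ in G1, S and G2M. The tests of a change of that difference gave 0 to 87 (1) in S and 0 to 224 (12) in G2M. The number of genes tested changed too, so these counts are not shares. By state it was 8473 as reported, 3354 after thinning and 13886 with no filter. By phase it was 9374 as reported and 7592 after thinning. Thinning gave the lowest count for LZ against DZ and for LZtoDZ, preMem and prePC against LZ. Without the replicate block, by mouse, no number of the 9 genes moved by over 1.5 times. In that setting 3 values lost their call, among them Cd80 in S against G1 of DZ (-1.17, adjusted p = 0.070), and 1 gained a call. The cause of these changes was not tested. Cd80, with 16 UMIs in prePC and 16 in PC, and Icosl and Il4ra in PC are limited by their counts.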

Other observations

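Among DZ cells, the authors' clusters differed in the share of RNA from these genes. The 1014 DZ cells of cluster 0 and the 764 of cluster 1 had pooled levels of 109 and 51.1 CPM for Cd86, 165 and 79.3 CPM for Cd83, 158 and 68.8 CPM for Il21r, 51.8 and 17.7 CPM for Icosl and 74.3 and 22.1 CPM for Il4ra, cluster 0 first, as plain CPM. Cd40 (47.4 and 37.8 CPM) and Fas (180 and 154 CPM) lay closer together. By count, Cd86 had 654 and 489 UMIs, Cd83 985 and 759, Il21r 943 and 658, Icosl 310 and 169, Il4ra 445 and 211, Cd40 284 and 362 and Fas 1078 and 1475. Per cell, Cd86, Cd83 and Il21r were thus close, Icosl and Il4ra higher in cluster 0, and Cd40 and Fas higher in cluster 1. In each mouse Il4ra was higher in cluster 0, at 86.1, 69.7 and 70.5 CPM against 23.5, 22.1 and 21.1 CPM in cluster 1. Clusters were made from these cells' expression, so the values are a description.

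The 66 LZ cells in the pre-memory cluster 4 had 96.7 CPM of Il4ra, 74.9 CPM of Icosl and 240 CPM of Il2rg, beside 116, 70.3 and 409 CPM in the 374 preMem cells of that cluster. The 64 LZ cells in cluster 5, which holds 159 of the 165 LZtoDZ cells, had 25.1 CPM of Il4ra, 23.8 CPM of Icosl and 150 CPM of Cd40, beside 12.2, 7.73 and 97.8 CPM in those LZtoDZ cells. Icosl in the LZ cells of cluster 4 of mice 1, 2 and 3 was 62.1, 73.5 and 80.3 CPM and in those of cluster 5 4.88, 58.8 and 9.60 CPM, so the mice differed in cluster 5. Along the authors' score named ACT within LZ cells, Il4ra averaged 94.5 ± 1.9, 74.0 ± 7.1, 74.2 ± 16.9, 54.5 ± 6.7 and 36.2 ± 2.3 CPM from the lowest to the highest of 5 bins (SD, n = 3), and Icosl 73.9 ± 8.3, 77.9 ± 7.7, 66.7 ± 4.3, 48.6 ± 3.1 and 31.7 ± 4.3 CPM, while Cd40 averaged 95.3 ± 7.6 and 129 ± 15.5 CPM in the lowest and highest bin. The median depth was 4431 UMIs in the lowest bin and 9759 in the highest, and its part in these values was not tested.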
